A study of Mus musculus with 9 samples.

Results

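EphA receptors are membrane tyrosine kinases that bind ephrin-A ligands on neighbouring cells. 7 of them, *Epha3*, *Epha4*, *Epha5*, *Epha6*, *Epha7*, *Epha8* and *Epha10*, were followed in cholinergic neurons of the adult mouse spinal cord, chosen by symbol from the 21457 features measured, and all 7 were present. Mice were 8 weeks old and heterozygous for both Chat-IRES-Cre, in which Cre is made wherever *Chat* (choline acetyltransferase) is expressed, and CAG-Sun1/sfGFP, a reporter that Cre switches on to mark the nuclear envelope with green fluorescent protein. All groups shared these alleles and none was treated. GFP-positive nuclei were sorted from frozen tissue and their RNA was sequenced on the 10x platform. The 12 mice, 6 male and 6 female, were combined into 3 pools of 4 mice (replicate 1 of both sexes, replicate 2 male and replicate 3 female), and the cords of a pool were cut into a cervical, a thoracic and a lumbar/sacral piece, giving 9 libraries. A library therefore stands for a pool of mice and not for an animal. Because Cre marks a cell for good, neurons that made *Chat* only in development carried the mark too. Of 34231 annotated nuclei, the 16042 cholinergic ones are described here: 5054 skeletal motor neurons (MNs), 5613 visceral MNs and 5375 interneurons. Skeletal MNs, which drive muscle, form clusters S1 to S3. Visceral MNs, the preganglionic neurons of the autonomic system, form V1 to V10, and the interneurons form I1 to I8.

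Eph receptors and ephrins are both anchored in the cell membrane, so they signal where cells touch, and signals can run into either cell. In the embryonic spinal cord, EphA4 on the axons of limb MNs in the lateral motor column steers them into the dorsal limb, away from ephrin-A ligands in the ventral limb, and EphA4 can also bind ephrin-B ligands. Other EphA receptors take part in axon guidance, topographic maps and synapse formation, and EphA10 lacks kinase activity.

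Levels are given as CPM: what a gene contributed to each 1000000 corrected counts of a library's nuclei of 1 class or cluster. The deposited values had been evened out between the nuclei of each library, and the median total of a cholinergic nucleus was 7381 (3219 to 16554). By library it was 7087, 16127 and 10255.5 for cervical replicates 1 to 3, 11077, 9380 and 8275.5 for thoracic and 4712, 7175 and 5701 for lumbar/sacral. Lumbar/sacral replicates 1 and 3 had the lowest totals, while replicate 2 was above cervical replicate 1, and the part of depth in region differences was tested for the share of *Epha4* in alpha MNs alone (below). The libraries held 2825, 747 and 1420 cervical, 1538, 1743 and 1630 thoracic and 2587, 1769 and 1783 lumbar/sacral cholinergic nuclei. 33 barcodes occurred in 2 libraries each, 66 nuclei in all.

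The labelled regions were checked against Hox genes, which keep the head-to-tail position of a spinal neuron. *Hoxc5* in skeletal MNs was at 16.1, 82.5 and 15.6 CPM in the cervical libraries, 102, 9.44 and 94.5 CPM in the thoracic libraries and 101, 88.1 and 81.3 CPM in the lumbar/sacral libraries. The library labelled cervical replicate 2 was as high as the other thoracic libraries, and the library labelled thoracic replicate 2 as low as the other cervical ones. *Hoxa9* showed the same exchange, at 0.145, 9.04 and 0 CPM in the cervical libraries, 11.9, 0.629 and 15.8 CPM in the thoracic libraries and 24.7, 21.7 and 17 CPM in the lumbar/sacral libraries. *Hoxd11*, a gene of lumbar and sacral levels, was 0 in all 6 cervical and thoracic libraries and 33.8, 37.4 and 27.2 CPM in the lumbar/sacral libraries, so the lumbar/sacral labels fitted. The makeup of visceral MNs followed the Hox genes, with cluster V5 at 18.4%, 1.19% and 20.6% of visceral nuclei in the cervical, 1.74%, 28.9% and 0.102% in the thoracic and 15.3%, 15.8% and 8.49% in the lumbar/sacral libraries. Labels were kept as given, and the limma region results of the receptors are given with and without the libraries labelled cervical and thoracic replicate 2. These are called the mismatched male libraries below. Of the *Epha4* shares below, those thinned or of at least 2 counts are given with all libraries only, as are the counts of pathway genes that passed. The sex labels did fit: *Xist*, made from the inactive X chromosome, was at 379, 0 and 798 CPM in the cervical libraries, 283, 1.26 and 644 CPM in the thoracic libraries and 323, 2.08 and 562 CPM in the lumbar/sacral libraries in skeletal MNs, and the Y-linked gene *Uty* had 92.8, 158 and 0.684 CPM in the cervical libraries, 102, 148 and 1.58 CPM in the thoracic libraries and 102, 134 and 1.18 CPM in the lumbar/sacral libraries.

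**Figure D1:**
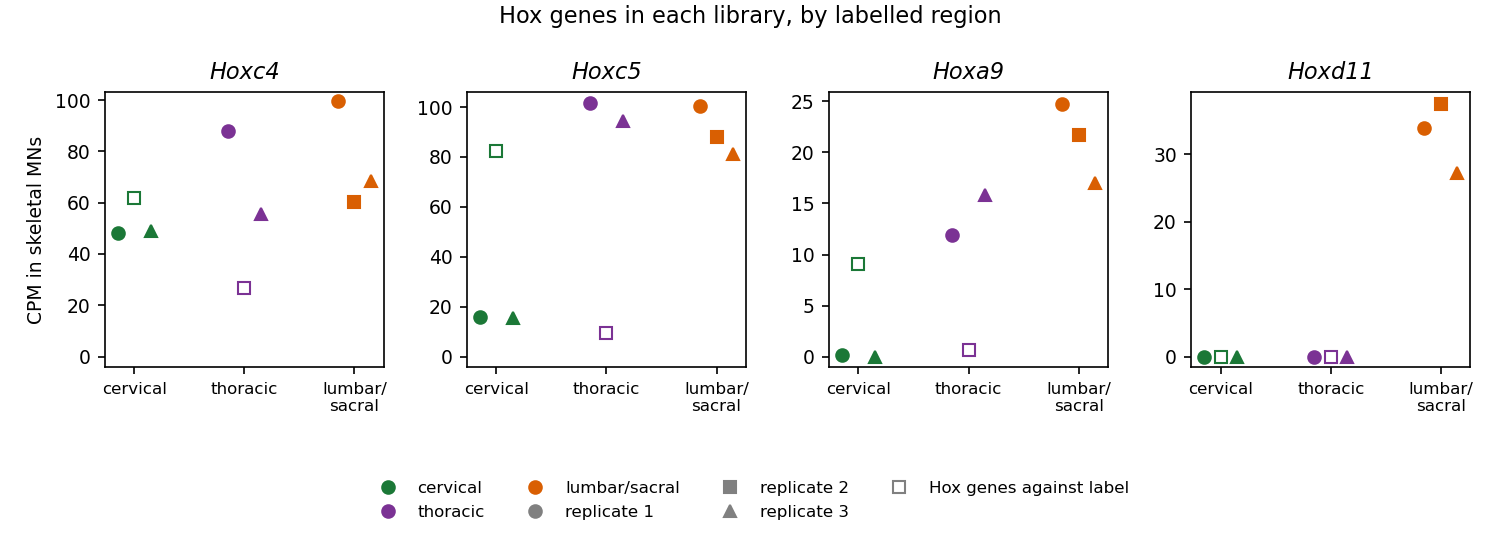
Level of 4 Hox genes in skeletal MNs (CPM, linear axes) of the 9 libraries by labelled region, each point a library. Open squares mark the libraries labelled cervical and thoracic replicate 2, whose *Hoxc5* values (82.5 and 9.44 CPM) sit with the other region's libraries, while *Hoxd11* is above 0 in lumbar/sacral libraries alone.

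Markers fitted the names of the 2 MN classes. Over the 9 libraries, the summed level of the skeletal markers *Tns1* and *Chodl* was 261 to 459.7 CPM in skeletal MNs, 40.3 to 75.3 CPM in visceral MNs and 12.6 to 22.5 CPM in interneurons. The 3 visceral markers (*Zeb2*, *Fbn2*, *Nos1*) summed to 1000 to 1632 CPM in visceral MNs against 22.7 to 112 CPM in skeletal MNs and 387 to 576 CPM in interneurons, there led by *Nos1*. Cholinergic genes (3 of 4 measured, without *Slc18a3*) were at 629 to 928 CPM in skeletal MNs, 509 to 879.5 CPM in visceral MNs and 312 to 517 CPM in interneurons. Within skeletal MNs, the alpha markers (*Rbfox3*, *Sv2b*, *Stk32a*) reached 451 to 1263 CPM in S2 against 33.6 to 100 in S1 and 40.8 to 114 in S3. Gamma markers (*Esrrg*, *Gfra1*, *Nrp2*, *Plekhg1*) were at 3251 to 4928 CPM in S3, 2064 to 3165 CPM in S1 and 1016 to 1888 CPM in S2, led by *Esrrg*, which S1 (1647 to 2558 CPM) had nearly as much of as S3 (1752 to 2698 CPM). Type 3 markers (*Gpr149*, *Rreb1*) were at 599.9 to 737 CPM in S1, 108 to 348 CPM in S2 and 48.4 to 67.9 CPM in S3. S1, S2 and S3 are therefore called Type 3, alpha and gamma MNs, as in the annotation. Markers of smaller groups were at 8.83 to 426 CPM in visceral MNs (V8: *Sst*, *Penk*, *Adra1a*) and 170.2 to 691 CPM in interneurons (I8: *Piezo2*, *Reln*). Excitatory markers were at 4.22 to 12 CPM and inhibitory ones at 21.5 to 38.7 CPM in skeletal MNs, and inhibitory ones at 272 to 362 CPM in interneurons.

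Of other cells, oligodendrocyte markers (5 of 5, led by *Mbp*) were at 54.9 to 92.5 CPM in skeletal MNs, astrocyte markers at 1.88 to 4.72 CPM, endothelial markers (without *Cldn5*, not measured) at 3.25 to 6.33 CPM and Schwann cell or root markers at 0 to 3.55 CPM. Microglial markers (3 of 4, without *C1qa*, led by *P2ry12*) were at 8.39, 41.3 and 10.4 CPM in the cervical, 7.13, 41.1 and 118 CPM in the thoracic and 11.7, 54.6 and 106 CPM in the lumbar/sacral libraries, high in thoracic and lumbar/sacral replicate 3. The regions overlapped, but in each pool of mice the lumbar/sacral library was above the cervical one. S2 of the library labelled cervical replicate 2, with 71 nuclei, had 102.1 CPM of skeletal markers (333 to 501 in S2 of the other 8 libraries), 257 CPM of visceral markers (0 to 53.9 in the others) and 360.2 CPM of cholinergic genes (629 to 853 in the others). S2 of lumbar/sacral replicate 2 had the lowest alpha markers, at 450.8 CPM, and the highest Type 3 markers, at 348 CPM (108 to 273 in the others).

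The 7 genes lie on chromosomes 1, 4, 5 and 16, with *Epha3* and *Epha6* on the same chromosome and 3 others on chromosome 4. In GENCODE vM21 coordinates (GRCm38), *Epha6* spans 59653483 to 60605531 and *Epha3* 63543534 to 63864175 on chromosome 16, and *Epha4* 77367185 to 77515088 on chromosome 1. *Epha5* spans 84054761 to 84417382 on chromosome 5, and these 4 genes are on the minus strand. *Epha7* spans 28813131 to 28967499 and *Epha10* 124880899 to 124917800 on the plus strand of chromosome 4, and *Epha8* 136929419 to 136956816 on its minus strand. Promoter sequences (RefSeq, GRCm38.p6) were found for all 7 symbols, and the 6 whose regional differences are described are shown, 250 bases before to 50 bases after the RefSeq start of the gene, 5′ to 3′ on the strand of the gene. For *Epha10* the RefSeq start lies inside the GENCODE span, and for the others the 2 starts are the same. Capitals mark the motifs searched, TAATTA (the core of many homeodomain sites), TATAAA and GGGCGG, each on both strands. The windows are chr16:63864126-63864425 on the minus strand for *Epha3*, chr1:77515039-77515338 on the minus strand for *Epha4*, chr5:84417333-84417632 on the minus strand for *Epha5*, chr16:60605482-60605781 on the minus strand for *Epha6*, chr4:28812881-28813180 on the plus strand for *Epha7* and chr4:124881535-124881834 on the plus strand for *Epha10*. TAATTA was in 5.29% of all 32851 promoter windows and, of the 7, in *Epha5* alone. TATAAA was in 13.6% of all windows and in none of the 7. GGGCGG was in 35.7% of all windows and in 6 of the 7, all but *Epha3*.
Epha3: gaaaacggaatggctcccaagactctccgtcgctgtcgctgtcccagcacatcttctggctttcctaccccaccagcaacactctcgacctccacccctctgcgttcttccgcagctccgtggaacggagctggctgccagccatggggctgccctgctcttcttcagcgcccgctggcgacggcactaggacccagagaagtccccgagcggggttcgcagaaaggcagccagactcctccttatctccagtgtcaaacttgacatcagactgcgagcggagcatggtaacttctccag
Epha4: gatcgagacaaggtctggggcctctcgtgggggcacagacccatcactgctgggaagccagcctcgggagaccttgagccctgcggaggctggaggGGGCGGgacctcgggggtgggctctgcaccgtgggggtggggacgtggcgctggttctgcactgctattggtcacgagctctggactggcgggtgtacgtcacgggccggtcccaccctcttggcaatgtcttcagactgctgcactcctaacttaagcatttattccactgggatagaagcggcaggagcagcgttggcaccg
Epha5: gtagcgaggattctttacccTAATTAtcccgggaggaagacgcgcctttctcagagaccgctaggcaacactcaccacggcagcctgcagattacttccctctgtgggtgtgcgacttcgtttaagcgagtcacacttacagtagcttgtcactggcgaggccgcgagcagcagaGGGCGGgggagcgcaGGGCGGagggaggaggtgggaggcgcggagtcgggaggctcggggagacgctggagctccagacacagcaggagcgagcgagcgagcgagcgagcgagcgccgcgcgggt
Epha6: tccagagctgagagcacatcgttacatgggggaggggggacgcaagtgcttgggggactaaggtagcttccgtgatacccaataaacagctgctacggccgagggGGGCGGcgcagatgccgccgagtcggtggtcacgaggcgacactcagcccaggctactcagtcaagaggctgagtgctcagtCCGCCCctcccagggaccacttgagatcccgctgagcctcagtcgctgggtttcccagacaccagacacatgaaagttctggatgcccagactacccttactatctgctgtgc
Epha7: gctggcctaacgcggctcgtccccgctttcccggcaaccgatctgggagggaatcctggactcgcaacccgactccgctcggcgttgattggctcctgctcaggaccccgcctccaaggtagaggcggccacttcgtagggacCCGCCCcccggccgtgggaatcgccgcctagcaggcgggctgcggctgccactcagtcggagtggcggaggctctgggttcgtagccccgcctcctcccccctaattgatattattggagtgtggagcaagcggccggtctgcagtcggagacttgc
Epha10: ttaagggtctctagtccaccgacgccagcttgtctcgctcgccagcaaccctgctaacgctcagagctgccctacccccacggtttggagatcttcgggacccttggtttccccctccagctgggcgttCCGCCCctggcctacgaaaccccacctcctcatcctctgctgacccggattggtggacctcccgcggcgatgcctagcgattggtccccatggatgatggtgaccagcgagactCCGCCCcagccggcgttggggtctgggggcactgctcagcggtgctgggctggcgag

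Each receptor had its own pattern over the 21 clusters, given as means over all regions, which for some clusters differed by region. *Epha3* was highest in V10, at 718 ± 201 CPM (SD over libraries), followed by V8 (300.5 ± 90.3 CPM), I5 (228 ± 81.3 CPM), I6 (225 ± 63.7 CPM) and V7 (207 ± 41.1 CPM), and lowest in I8 (3.19 ± 3.66 CPM). Of these neighbours in the order, V8 differed from I5 beyond the spread over libraries. V8 was measured in lumbar/sacral libraries alone. There I5 was at 166 CPM, below V6 (258 CPM, 2 libraries), V1 (232 CPM), I6 (219.5 CPM) and V7 (215 CPM). *Epha4* was highest in the skeletal clusters S1 (172 ± 36.7 CPM) and S2 (95.5 ± 37.8 CPM), which differed beyond their spread, and then in I5 (71.5 ± 23.9 CPM), I1 (70.6 ± 34.1 CPM), I8 (43.8 ± 24.9 CPM) and S3 (43.7 ± 12.1 CPM), which did not. It was lowest in I3 (3.0 ± 3.98 CPM). *Epha5* was highest in I3 (1650 ± 135 CPM) and V8 (1514 ± 179.9 CPM), close to each other and, beyond the spread, above I4 (969 ± 98 CPM), S3 (951 ± 139 CPM) and I5 (949.9 ± 193 CPM), and lowest in I7 (71.2 ± 34.6 CPM). I3, the cluster with the highest *Epha5*, thus had the lowest mean *Epha4*, though not beyond the spread below V8 (4.07 ± 2.63 CPM). At lumbar/sacral levels I3 had 5.49 CPM of *Epha4*, above V3 (2.77 CPM), V5 (3.38 CPM) and V8, among others.

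*Epha6* was highest in V10 (2860 ± 731 CPM), beyond its spread above V2 (1603 ± 513 CPM) and I8 (1500 ± 277 CPM), and lowest in I4 (96.4 ± 63.6 CPM), I7 (86.8 ± 31.9 CPM) and I3 (71.9 ± 47.4 CPM). The skeletal clusters sat in the middle of the order, with 722 ± 314 CPM in S3, 563 ± 240.1 CPM in S1 and 553 ± 168 CPM in S2. *Epha7* was highest in V10 (930.1 ± 284 CPM) and V9 (575 ± 181 CPM), each beyond the spread above the next, then in S3 (336 ± 74.1 CPM), V3 (292 ± 134 CPM), V4 (278 ± 176 CPM) and S1 (226 ± 45.5 CPM), and lowest in I8 (58.4 ± 23 CPM) and V8 (44 ± 18.8 CPM). The order of S3, V3 and V4 turned with region, with rostral means of 370, 368 and 389 CPM and lumbar/sacral means of 268, 140 and 55.4 CPM. At lumbar/sacral levels, the only ones at which V8 was measured, V2 (23.7 CPM) and I8 (42.6 CPM) were below V8. *Epha8* was low throughout and highest in I7 (24.2 ± 12.3 CPM), beyond its spread above I1 (13.5 ± 6.75 CPM), which was followed by V1 (9.31 ± 9.08 CPM). *Epha10* was highest in the 8 interneuron clusters, from 348 ± 24.4 CPM in I8 to 232 ± 43.8 CPM in I6, without a step beyond the spread between neighbours among them. V8 (207 ± 52.9 CPM), measured in lumbar/sacral libraries alone, headed the visceral clusters, and in those libraries I6 was below it, at 197 CPM. S3 (57.1 ± 8.78 CPM) was last. V10, a cluster of 189 nuclei, led the order for 3 receptors, *Epha3*, *Epha6* and *Epha7*.

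**Figure D2:**
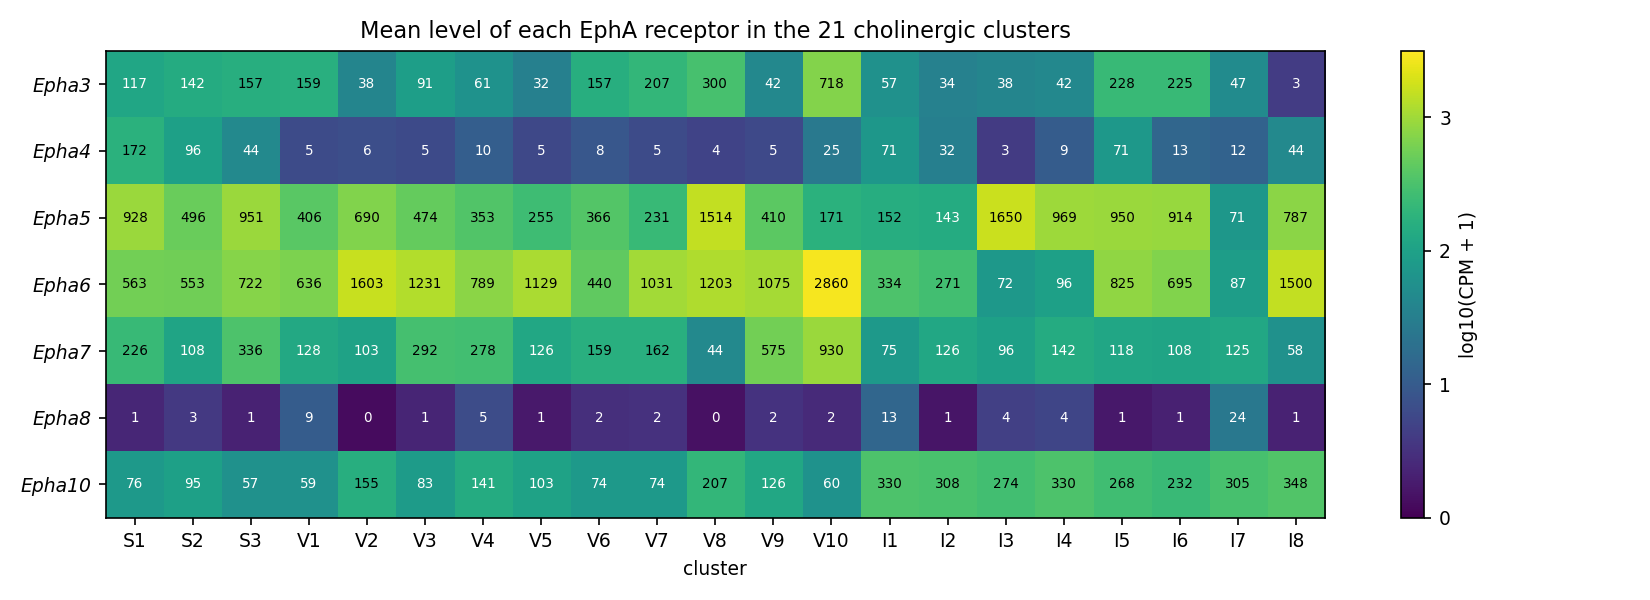
Mean level of each of the 7 EphA receptors (vertical) in each of the 21 clusters (horizontal), as CPM averaged over the libraries with at least 10 nuclei in the cluster, with the colour on a log10(CPM + 1) scale. The skeletal clusters S1 and S2 lead for *Epha4* (172 CPM in S1), V10 for *Epha3*, *Epha6* and *Epha7*, and the interneuron clusters for *Epha10*.

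Between classes, each library gave a value to every class, and a class was set against the mean of the other 2 with the library as a term (limma, Benjamini-Hochberg adjustment over all genes tested). Class and cluster names had been drawn from these very nuclei, and a test between them describes the names. 6 of the 7 receptors reached 10 CPM in 3 sums and were tested, all but *Epha8*, and skeletal MNs had 3 higher and 1 lower, visceral MNs 1 higher and 3 lower and interneurons 2 higher and 3 lower. Of all genes, 66.1%, 62.8% and 50.5% passed in these comparisons, so the counts of receptors say little beside this background. Their median log2 difference was 0.47, -0.14 and -0.24, beside -0.01, 0.05 and -0.04 for all genes.

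*Epha4*, the receptor tied to limb axon guidance, had the largest difference between skeletal MNs and the rest among the tested receptors. It was at 110.5, 62.9 and 102 CPM in the cervical libraries, 138, 87.6 and 97.1 CPM in the thoracic libraries and 104, 78.2 and 64.1 CPM in the lumbar/sacral libraries in skeletal MNs, against 2.95 to 11.8 CPM in visceral MNs and 21.3 to 50.9 CPM in interneurons. Skeletal values lay above those of both other classes in each of the 9 libraries. A count of *Epha4* was found in 45.1% of skeletal, 4.22% of visceral and 19.2% of interneuron nuclei of the same libraries, whose totals had been evened out. The log2 difference of skeletal MNs from the other classes was 2.17 (SE 0.11, adjusted p = 1.65e-13, limma with Benjamini-Hochberg adjustment), higher in 9 of 9 libraries. Visceral MNs were lower in 9 of 9 libraries, with a log2 difference of -2.54 (limma, adjusted p = 2.11e-14). Interneurons stood between, with 0.38 (limma, adjusted p = 0.00575, higher in 7 of 9 libraries), a call lost with a pseudocount of 20 (limma, adjusted p = 0.356).

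Among the skeletal types, *Epha4* was highest in Type 3 MNs (S1), lower in alpha MNs (S2) and lowest in gamma MNs (S3). In S1 it was at 195, 144 and 164 CPM in the cervical libraries, 241, 144 and 150.1 CPM in the thoracic libraries and 218, 156 and 139.8 CPM in the lumbar/sacral libraries. In S2 it was at 109.5, 32.4 and 101 CPM in the cervical libraries, 146, 92.7 and 145 CPM in the thoracic libraries and 93.3, 90.6 and 49 CPM in the lumbar/sacral libraries. In S3 it was at 51.8, 44.1 and 56.8 CPM in the cervical libraries, 61.5, 42.1 and 46.8 CPM in the thoracic libraries and 34.6, 31.4 and 24.6 CPM in the lumbar/sacral libraries. S1 was above S3 without overlap, while S2 reached from 32.4 CPM in cervical replicate 2, below S3 of that library, to values within the S1 range in thoracic replicates 1 and 3. The log2 difference was 1.88 between S1 and S3 (limma, adjusted p = 1.09e-10, higher in 9 of 9 libraries), 0.91 between S1 and S2 (limma, adjusted p = 2.64e-05, 9 of 9) and 0.97 between S2 and S3 (limma, adjusted p = 7.12e-06, 8 of 9).

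Other receptors also split the skeletal types, where 25.4% (S1 against S2), 19.8% (S1 against S3) and 31.1% (S2 against S3) of all genes passed. *Epha7* was lowest in alpha MNs, at 81.6 to 166 CPM in S2 against 166 to 290.4 in S1 and 224 to 465 in S3. It was lower in S2 than in S3 in 9 of 9 libraries, with a log2 difference of -1.59 (limma, adjusted p = 4.88e-15), and higher in S1 than in S2 in 9 of 9, with 1.03 (limma, adjusted p = 5.06e-11). *Epha5* had the same low point, 426 to 678 CPM in S2 against 729 to 1049 in S1 and 775 to 1157 in S3. Its log2 differences were -0.94 between S2 and S3 (limma, adjusted p = 3.51e-11, lower in 9 of 9 libraries) and 0.91 between S1 and S2 (limma, adjusted p = 1.78e-10, higher in 9 of 9). Alpha MNs thus had the least *Epha5* and *Epha7* of the 3 types. S1 was also below S3 for *Epha7* (-0.56, limma adjusted p = 1.3e-06, 9 of 9 libraries), *Epha6* (-0.36, limma adjusted p = 0.00789, 9 of 9) and *Epha3* (-0.37, limma adjusted p = 0.0136, 7 of 9), the last lost without the mismatched male libraries (limma, adjusted p = 0.0504). S2 was below S3 for *Epha6* (-0.31, limma adjusted p = 0.0161, 6 of 9 libraries), which was lost without thoracic replicate 1 (limma, adjusted p = 0.0797) or 3 (limma, adjusted p = 0.0718), and above it for *Epha10* (0.61, limma adjusted p = 0.00259, 8 of 9).

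A few type differences were called in part of the settings. *Epha10* in S1 against S2 (limma, adjusted p = 0.293) passed without thoracic replicate 3 (limma, adjusted p = 0.0357) and with at least 30 nuclei a sum (limma, adjusted p = 0.0263). *Epha3* in S1 against S2 (limma, adjusted p = 0.127) passed without cervical replicate 2 (limma, adjusted p = 0.0356) or lumbar/sacral replicate 2 (limma, adjusted p = 0.0286). *Epha10* in S1 against S3 (limma, adjusted p = 0.0924) passed without cervical replicate 2 (limma, adjusted p = 0.0107), thoracic replicate 3 (limma, adjusted p = 0.0462) or the mismatched male libraries (limma, adjusted p = 0.0282), and with at least 30 nuclei (limma, adjusted p = 0.0257). Each of these calls depended on which libraries or sums entered the fit.

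Limb MNs are found at cervical and lumbar levels and not at thoracic ones, so cervical and lumbar/sacral libraries were set against thoracic ones. The pieces were not cut to limb segments, and the paper links a mainly cervical alpha cluster to the diaphragm. The contrast is therefore one of levels, called limb levels for short, and not of limb MNs. The *Epha4* values of alpha MNs above were lower on average at limb levels, with 146, 92.7 and 145 CPM in the thoracic libraries. The 2 sets overlapped, and the lowest value, 32.4 CPM, came from the library labelled cervical replicate 2, whose S2 nuclei stood apart by their markers. The log2 difference was -0.74 (95% interval -1.52 to 0.04) and did not pass (limma, adjusted p = 0.985, 6 of 6 limb libraries below the thoracic mean), nor did it without the mismatched male libraries (-0.68, limma adjusted p = 0.968). In Type 3 and gamma MNs it was -0.05 (limma, adjusted p = 1) and -0.31 (limma, adjusted p = 1), and -0.13 (limma, adjusted p = 0.999) and -0.37 (limma, adjusted p = 0.993) without those libraries. The difference between alpha and gamma MNs in this contrast was -0.43 (limma, adjusted p = 0.959) and -0.32 without them (limma, adjusted p = 0.716). None of the receptors passed in S1, S2, S3 or the difference of S2 and S3, where 0% of genes passed each time. There 196, 315, 211 and 422 genes had an unadjusted limma p under 0.05. None passed in visceral MNs either, where 0.229% of genes did and 545 had an unadjusted limma p under 0.05, nor in interneurons, where 0% did and 113 had an unadjusted limma p under 0.05. Leaving out the mismatched male libraries added no receptor.

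The share of alpha MN nuclei with a count of *Epha4* was 49.9%, 14.1% and 54% in the cervical, 68.5%, 54.4% and 88.5% in the thoracic and 31.4%, 37.9% and 21.5% in the lumbar/sacral libraries. The limb libraries lay below the thoracic ones, but cervical replicate 3, at 54.0%, all but met thoracic replicate 2, at 54.4%. The mean was 34.8% at limb levels and 70.5% at thoracic levels, a difference of -35.7 percentage points (2-sided exact permutation test over libraries, n = 6 and 3, p = 0.0238, with 0.0119 the smallest p possible). With the replicate block, which compares libraries of the same pool, the exact p was 0.0741 and the smallest possible 0.037. Without thoracic replicate 3, with 26 nuclei, the difference was -26.7 points and the exact p 0.0714, with 0.0357 the smallest possible. Without the mismatched male libraries the difference was -39.5 points with an exact p of 0.0476, the smallest possible there. In the test of all libraries these 2 entered as labelled, at 14.1% (cervical) and 54.4% (thoracic). The difference with their labels exchanged was not tested. After each nucleus was thinned to 4000 counts, the shares were 34.7%, 2.82% and 31.3% in the cervical, 35.9%, 27.8% and 57.7% in the thoracic and 29.4%, 36.2% and 15.7% in the lumbar/sacral libraries. The difference was then -15.5 points (exact permutation test, n = 6 and 3, p = 0.202) and the groups overlapped, with means of 25% at limb and 40.5% at thoracic levels. Thinning left out 21.9% of the cholinergic nuclei of lumbar/sacral replicate 1. For nuclei with at least 2 counts of *Epha4*, not thinned, the difference was -19.3 points (exact permutation test, n = 6 and 3, p = 0.0238). Type 3 markers in S2 were at 108, 163 and 111 CPM in the cervical, 212, 184 and 273 CPM in the thoracic and 194.5, 348 and 133 CPM in the lumbar/sacral libraries. Their part in the shares was not tested.

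**Figure D3:**
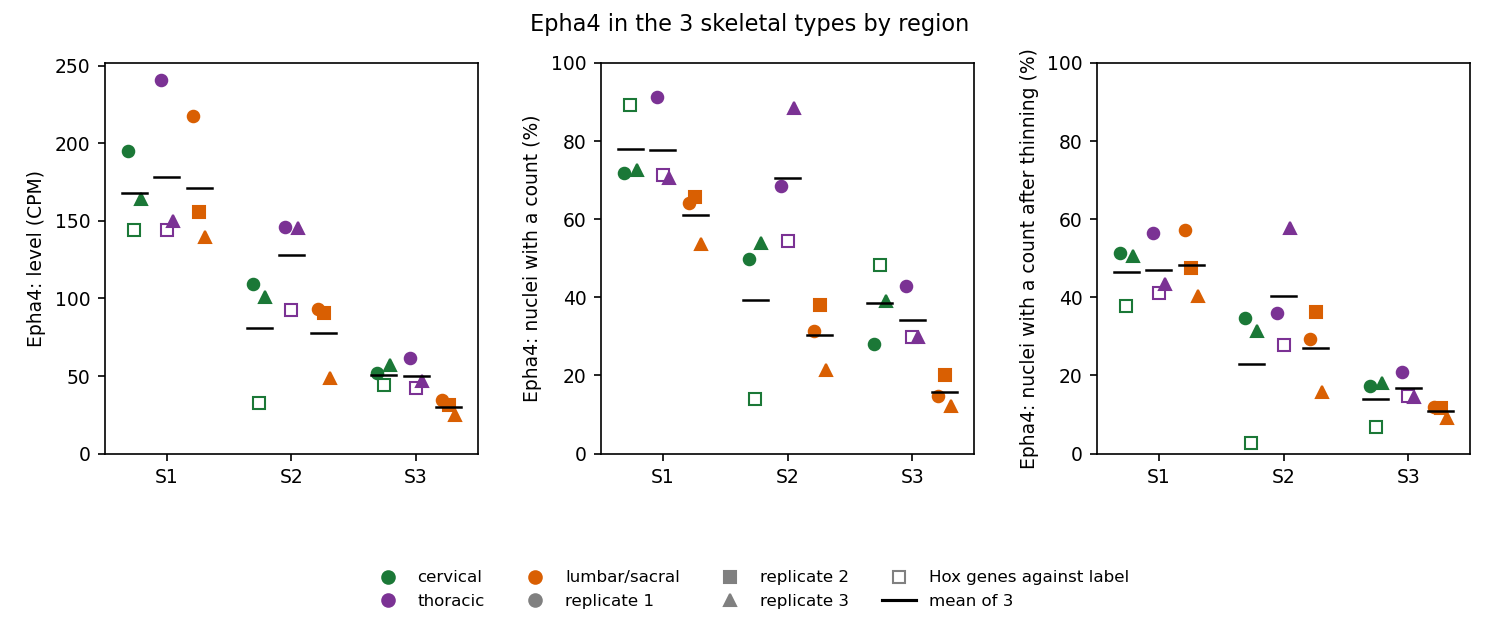
*Epha4* in the 3 skeletal types by labelled region, as level (CPM, left), percent of nuclei with a count (middle) and the same after thinning each nucleus to 4000 counts (right), each point a library and each line the mean of 3. Levels fall in the order S1, S2, S3, and the thoracic S2 shares (54.4% to 88.5%) come down to 27.8% to 57.7% after thinning.

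In interneuron cluster I6 *Epha4* was low, at 3.47, 4.70 and 3.99 CPM in the cervical libraries, 9.84, 1.33 and 0 CPM in the thoracic libraries and 35, 20.1 and 39.3 CPM in the lumbar/sacral libraries. Lumbar/sacral values lay above all rostral ones (rostral: cervical and thoracic together). The log2 difference was 2.08 (SE 0.41, limma adjusted p = 0.0343, 3 of 3 lumbar/sacral libraries higher), in a comparison in which 0.845% of genes passed. Nothing is concluded from this call, since *Epha4* met the filter of 10 CPM in 3 sums through the lumbar/sacral libraries alone. With no filter it was called too (limma, adjusted p = 0.0403), and with any lumbar/sacral library left out it was not tested. In simulated data the share of false calls was above the threshold in this layout, the highest of those tried. The call was lost without the mismatched male libraries (limma, adjusted p = 0.0827), with a pseudocount of 1 (limma, adjusted p = 0.14), with at least 30 nuclei a sum (limma, adjusted p = 0.0503), and without cervical replicate 1 (limma, adjusted p = 0.0857), 2 (limma, adjusted p = 0.0503) or 3 (limma, adjusted p = 0.0829) or thoracic replicate 2 (limma, adjusted p = 0.0734) or 3 (limma, adjusted p = 0.067). *Epha4* in cluster I8 was at 39.6 and 6.17 CPM in cervical replicates 1 and 3, 29.4, 26.9 and 34 CPM in the thoracic and 71.9, 73 and 69.6 CPM in the lumbar/sacral libraries, also above all rostral values in 3 of 3. I8 had 1 nucleus in the library labelled cervical replicate 2 and was not tested.

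*Epha6* was lower in skeletal MNs of the lumbar/sacral cord. In Type 3 MNs (S1) it was at 785, 690.1 and 840.0 CPM in the cervical libraries, 848, 528 and 519.7 CPM in the thoracic libraries and 307, 239 and 309 CPM in the lumbar/sacral libraries. In alpha MNs (S2) it was at 798, 497 and 748 CPM in the cervical libraries, 670.3, 636 and 475 CPM in the thoracic libraries and 472, 310.0 and 375 CPM in the lumbar/sacral libraries. In gamma MNs (S3) it was at 949.6, 811 and 949 CPM in the cervical libraries, 1244, 599 and 830.4 CPM in the thoracic libraries and 441, 319.7 and 353 CPM in the lumbar/sacral libraries. In each type the 3 lumbar/sacral libraries lay below all 6 rostral ones. The mismatched male libraries, both rostral, stand on the same side of this comparison whichever label is right. The log2 difference was -1.27 in S1 (SE 0.17, limma adjusted p = 0.0546, lower in 3 of 3 lumbar/sacral libraries), which just missed the threshold. It was -1.24 in S3 (SE 0.21, limma adjusted p = 0.159) and -0.71 in S2 (SE 0.20, limma adjusted p = 0.975). With the replicate block, which takes the pool of mice into account, limma called it in S1 (adjusted p = 0.00675) and S3 (adjusted p = 0.015). In S1 it was also called with a pseudocount of 20 (limma, adjusted p = 0.0439), with no filter on low genes (limma, adjusted p = 0.0381), without nuclei of shared barcodes (limma, adjusted p = 0.0435) and without cervical replicate 2 (limma, adjusted p = 0.0439), but not without both mismatched male libraries (-1.36, limma adjusted p = 0.0803). In S3 the value without them was -1.40 (limma, adjusted p = 0.07) and in S2 -0.79 (limma, adjusted p = 0.91).

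These fits called few genes of any kind. No receptor passed in S1, S2 or S3, where 0%, 0% and 0.0711% of genes passed and 439, 245 and 579 genes had an unadjusted limma p under 0.05. *Epha4* in S3 and *Epha7* in S1 and S2 were also below all rostral values in 3 of 3 lumbar/sacral libraries. Their log2 differences were -0.66 (limma, adjusted p = 0.366), -0.48 (limma, adjusted p = 0.592) and -0.38 (limma, adjusted p = 0.975), and without the mismatched male libraries -0.76, -0.54 and -0.28, with limma adjusted p = 0.242, 0.466 and 0.91. In visceral MNs *Epha6* was at 1311, 851 and 1178 CPM in the cervical, 1090, 949.9 and 817 CPM in the thoracic and 1338, 972 and 1134 CPM in the lumbar/sacral libraries, and the groups overlapped (log2 difference 0.16, limma adjusted p = 0.874; without the mismatched male libraries 0.07, limma adjusted p = 0.858). In interneurons the difference was -0.11 (limma, adjusted p = 1; -0.24 and 0.873 without those libraries), no receptor passed, and 0.051% of genes did, with 331 at an unadjusted limma p under 0.05. The regional difference of skeletal MNs from visceral MNs was fitted on its own, as the log2 difference between the classes in each library. For *Epha6* skeletal MNs were below visceral MNs in 9 of 9 libraries, with differences of -0.63, -0.37 and -0.45 (log2) in the cervical, -0.22, -0.72 and -0.28 in the thoracic and -1.71, -1.72 and -1.69 in the lumbar/sacral libraries. The change in this gap from rostral to lumbar/sacral levels was -1.26 (SE 0.12, limma adjusted p = 3.48e-05, 3 of 3 libraries), where 7.26% of genes passed, and -1.31 without the mismatched male libraries (limma, adjusted p = 3.36e-06), where 8.09% did. This fit was added after the values were seen.

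**Figure D4:**
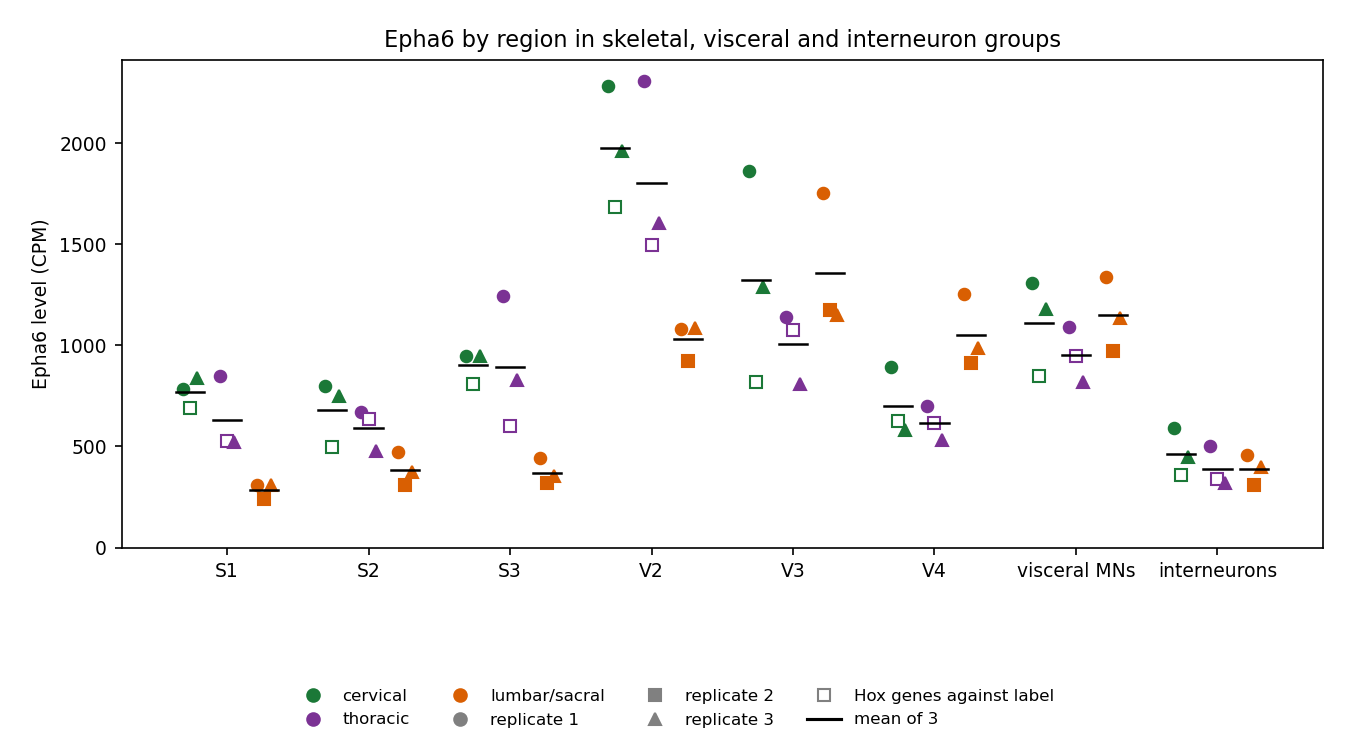
*Epha6* level (CPM) in each library by labelled region, for skeletal clusters, 3 visceral clusters and the classes of visceral MNs and interneurons, with lines at the mean of 3 libraries. The lumbar/sacral points lie below all others in S1, S2, S3 and V2 (239 to 309 CPM in S1), above all others in V4, and overlap them in the visceral and interneuron classes.

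Across classes, *Epha6* was highest in visceral MNs, with a log2 difference of 1.12 from the others (limma, adjusted p = 1.22e-07, higher in 9 of 9 libraries), and lower in interneurons (-0.94, limma adjusted p = 2.06e-06, lower in 9 of 9). Means were 622 ± 235 CPM in skeletal MNs, 1071 ± 188 CPM in the visceral class and 413 ± 93.8 CPM among interneurons. Interneurons were the lowest class in 6 of 6 rostral libraries. In the lumbar/sacral ones skeletal MNs were, at 405, 292 and 348 CPM against 459, 308 and 398 CPM. The skeletal difference was -0.18 (limma, adjusted p = 0.225, lower in 4 of 9 libraries). Within visceral clusters it varied by region in more than 1 direction. In V2 it was at 2282, 1685 and 1961 CPM in the cervical libraries, 2309, 1497 and 1606 CPM in the thoracic libraries and 1079, 924 and 1088 CPM in the lumbar/sacral libraries, lower at lumbar/sacral levels without overlap (log2 difference -0.86, limma adjusted p = 0.0386, 3 of 3 libraries; without the mismatched male libraries -0.97, limma adjusted p = 0.0132). That call was lost with median-of-ratios scaling (limma, adjusted p = 0.0783), with no filter (limma, adjusted p = 0.124), with at least 30 nuclei (limma, adjusted p = 0.065), and without cervical replicate 1 (limma, adjusted p = 0.109) or 3 (limma, adjusted p = 0.0777), thoracic replicate 3 (limma, adjusted p = 0.0611) or lumbar/sacral replicate 1 (limma, adjusted p = 0.125), 2 (limma, adjusted p = 0.24) or 3 (limma, adjusted p = 0.17). In V4 lumbar/sacral values were above all others, 1254, 913 and 988 CPM against 892, 624 and 583 CPM in the cervical and 702, 614 and 529.6 CPM in the thoracic libraries (log2 difference 0.68, limma adjusted p = 0.0976, and 0.0106 with the replicate block; without the mismatched male libraries 0.65, limma adjusted p = 0.215). V6 had at least 10 nuclei in only 2 lumbar/sacral libraries, with 1977 and 851 CPM of *Epha6* against 83.6, 150.5 and 61.6 CPM in the cervical and 199.8, 56.3 and 143 CPM in the thoracic libraries, and was not tested. In V5, which had under 10 nuclei in cervical replicate 2 and thoracic replicate 3 and was not tested either, *Epha6* was at 1589 and 1286 CPM in the cervical, 1266 and 1105 CPM in the thoracic and 1017, 690.0 and 948 CPM in the lumbar/sacral libraries, lower in 3 of 3.

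Regional differences passed the test in visceral MNs. *Epha5* in visceral MNs was at 256, 319.6 and 271 CPM in the cervical libraries, 320.4, 245 and 366 CPM in the thoracic libraries and 841, 885 and 972 CPM in the lumbar/sacral libraries. *Epha7* ran the other way, at 348, 239 and 292 CPM in the cervical libraries, 307, 239 and 199 CPM in the thoracic libraries and 76.2, 59.4 and 131 CPM in the lumbar/sacral libraries. For both, the 3 lumbar/sacral libraries lay outside the range of the 6 rostral ones. *Epha5* rose by 1.60 on the log2 scale (SE 0.14, limma adjusted p = 0.0005, 3 of 3 lumbar/sacral libraries). *Epha7* changed by -1.60 (SE 0.24, limma adjusted p = 0.00561, 3 of 3). Without the mismatched male libraries the values were 1.56 (limma, adjusted p = 0.000602) and -1.68 (limma, adjusted p = 0.0141). These were the 2 of 5 tested receptors that passed, where 4.27% of all genes did, and 4.81% without those libraries. *Epha10*, the receptor without kinase activity, was at 64, 121 and 63.4 CPM in the cervical libraries, 119, 73.7 and 90.2 CPM in the thoracic libraries and 176, 163 and 120.4 CPM in the lumbar/sacral libraries and did not pass (log2 difference 0.79, limma adjusted p = 0.125), but did without cervical replicate 2 (limma, adjusted p = 0.0207) and without both mismatched male libraries (0.85, limma adjusted p = 0.0267). *Epha3* had a difference of 0.72 (limma, adjusted p = 0.132; without those libraries 0.70, limma adjusted p = 0.132). Different clusters made up the class by region: V8, with 1514 CPM of *Epha5* and 44 CPM of *Epha7*, was 25.8% to 33.4% of visceral nuclei in lumbar/sacral libraries and at most 0.28% elsewhere.

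The comparison was therefore repeated within the 11 visceral and interneuron clusters that had at least 10 nuclei in all 9 libraries, a step added after values were seen. In V3, *Epha5* was at 174, 192 and 161 CPM in the cervical libraries, 228, 149 and 265 CPM in the thoracic libraries and 958, 1017 and 1127 CPM in the lumbar/sacral libraries. Lumbar/sacral values were several times the rostral ones, with a log2 difference of 2.40 (SE 0.19, limma adjusted p = 3.5e-05, 3 of 3 libraries) and 2.32 without the mismatched male libraries (limma, adjusted p = 2.21e-05). *Epha7* in V3 was at 513, 296 and 404 CPM in the cervical libraries, 364, 366 and 265 CPM in the thoracic libraries and 138, 116 and 166 CPM in the lumbar/sacral libraries. It was lower in 3 of 3 lumbar/sacral libraries (-1.35, limma adjusted p = 0.0046; without the mismatched male libraries -1.41, limma adjusted p = 0.00222), a call lost without lumbar/sacral replicate 2 (limma, adjusted p = 0.062). *Epha10* in V3 was at 55.1, 74 and 58 CPM in the cervical libraries, 59.6, 74.3 and 64.1 CPM in the thoracic libraries and 123, 136 and 105 CPM in the lumbar/sacral libraries. It was higher in 3 of 3 lumbar/sacral libraries (0.87, limma adjusted p = 0.0327; without the mismatched male libraries 0.97, limma adjusted p = 0.0179) and lost without any of cervical replicate 1 (limma, adjusted p = 0.0896) or 3 (limma, adjusted p = 0.0859), thoracic replicate 1 (limma, adjusted p = 0.0641) or 3 (limma, adjusted p = 0.0719) or lumbar/sacral replicate 1 (limma, adjusted p = 0.129), 2 (limma, adjusted p = 0.227) or 3 (limma, adjusted p = 0.0788). In V3, 3 receptors thus passed, where 1.55% of genes did, and 2.41% without the mismatched male libraries.

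In V2 and V4, *Epha3*, a receptor for ephrin-A5 among others, was called as higher at lumbar/sacral levels. In V2 it was at 13, 2.97 and 4.81 CPM in the cervical libraries, 6.41, 10 and 3.16 CPM in the thoracic libraries and 100.2, 100.2 and 100 CPM in the lumbar/sacral libraries. In V4 it was at 19.7, 15.5 and 3.28 CPM in the cervical libraries, 10.5, 12.2 and 15.4 CPM in the thoracic libraries and 224, 104 and 142 CPM in the lumbar/sacral libraries. In both clusters it was at most 19.7 CPM in rostral libraries and at least 100 CPM in lumbar/sacral ones, with a log2 difference of 3.23 in V2 (SE 0.34, limma adjusted p = 0.000147, 3 of 3 libraries) and 3.19 in V4 (SE 0.35, limma adjusted p = 0.000464, 3 of 3). Without the mismatched male libraries these were 3.22 (limma, adjusted p = 0.000137) and 3.27 (limma, adjusted p = 0.00119). In V2 the 3 lumbar/sacral sums carried *Epha3* past the filter, so nothing is concluded from that call. With no filter *Epha3* was called in V2 as well (limma, adjusted p = 0.000607). *Epha7* was lower there, as in V3. In V2 it was at 245, 75.4 and 154 CPM in the cervical libraries, 120.1, 191 and 72.1 CPM in the thoracic libraries and 39.4, 15.6 and 16 CPM in the lumbar/sacral libraries. In V4 it was at 474, 331 and 442 CPM in the cervical libraries, 427, 348 and 309.6 CPM in the thoracic libraries and 53.5, 21.3 and 91.5 CPM in the lumbar/sacral libraries. The lumbar/sacral values lay below all rostral ones in both clusters, with log2 differences of -2.33 (limma, adjusted p = 0.00499) and -2.88 (limma, adjusted p = 0.000464), 3 of 3 libraries each. They were -2.39 (limma, adjusted p = 0.00131) and -2.96 (limma, adjusted p = 0.00122) without the mismatched male libraries. With *Epha6*, 3 receptors passed in V2, *Epha3* among them, and 2 in V4. There 3.07% and 2.74% of genes did, and 4.04% and 2.66% without those libraries. With the replicate block *Epha5* in V4 (0.59, limma adjusted p = 0.0501, and 0.015 with the block; limma adjusted p = 0.0495 with a pseudocount of 20 and 0.0447 without nuclei of shared barcodes; 0.61 and limma adjusted p = 0.107 without the mismatched male libraries) and *Epha7* in V7 (-1.15, limma adjusted p = 0.184, and 0.0479 with the block; -1.26 and limma adjusted p = 0.15 without those libraries) were called as well. In V4, *Epha4*, *Epha5* and *Epha6* lay above all rostral values in 3 of 3 lumbar/sacral libraries too, *Epha4* with a log2 difference of 1.03 (limma, adjusted p = 0.38) and 0.65 without the mismatched male libraries (limma, adjusted p = 0.56).

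No receptor passed in V1, V7 or I1 to I5 by limma, where 0%, 0.0783%, 0% (I1), 0.511% (I2), 0% (I3), 0.0408% (I4) and 0.0286% (I5) of genes did. Leaving out the mismatched male libraries added none. At an unadjusted limma p under 0.05 there were 973 genes in V1, 143 in I1 and 183 in I3. In 3 of 3 lumbar/sacral libraries *Epha3* in V1 and *Epha5* in V7 were above all rostral values. Their log2 differences were 0.93 (limma, adjusted p = 0.203) and 0.91 (limma, adjusted p = 0.257), and 0.93 (limma, adjusted p = 0.333) and 0.76 (limma, adjusted p = 0.273) without the mismatched male libraries. The *Epha7* decrease was thus called in V2, V3 and V4, the *Epha3* increase in V4 and the *Epha5* increase in V3. The *Epha3* call in V2 is left aside because of the filter. Whether clusters differed from each other in these changes was not tested. In V6, *Epha5* was at 1442 and 778 CPM in the 2 lumbar/sacral libraries with at least 10 nuclei and 108, 127 and 116 CPM in the cervical and 125, 128 and 101 CPM in the thoracic ones, also without a test. *Epha3*, *Epha4* and *Epha10* were likewise above all rostral values in both lumbar/sacral libraries of V6, and *Epha3* in I7 was below them in 3 of 3, with 3 rostral libraries.

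**Figure D5:**
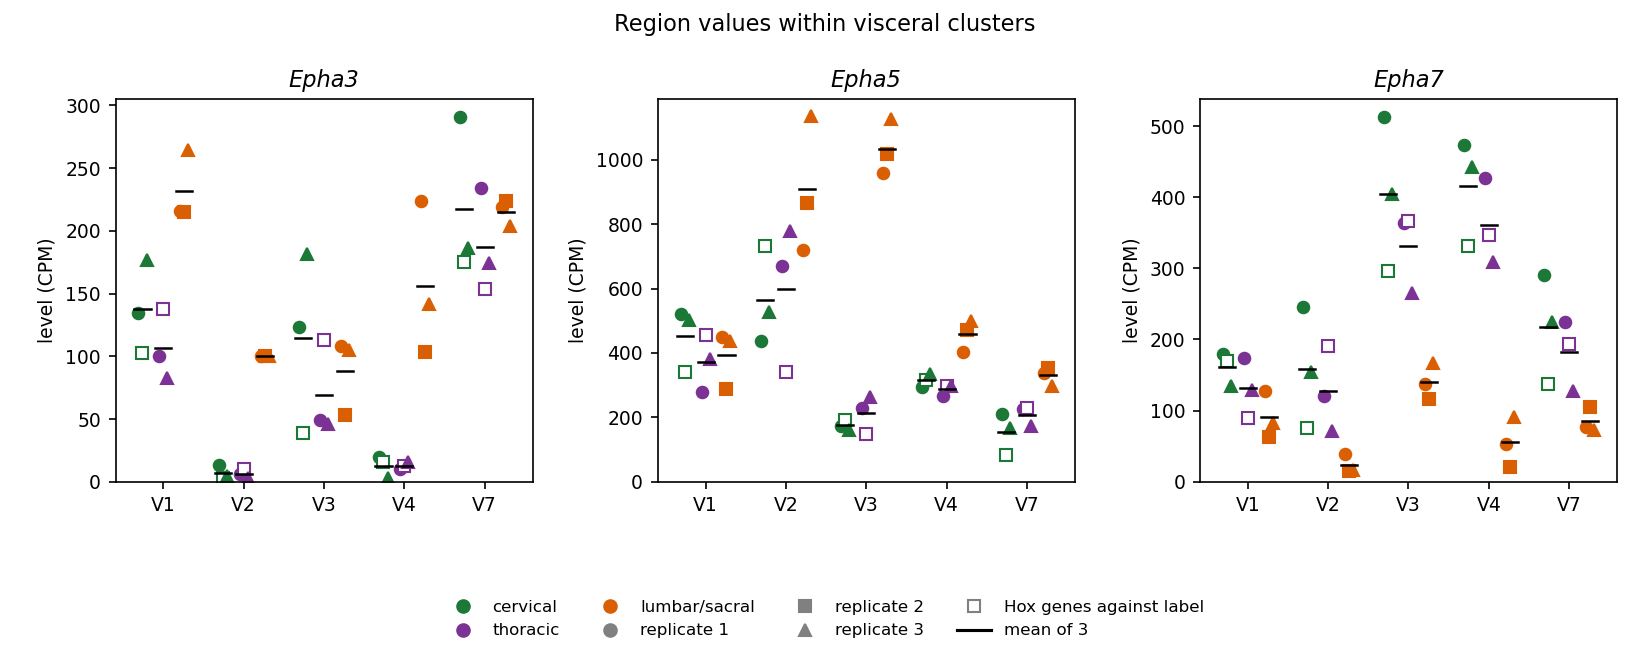
*Epha3*, *Epha5* and *Epha7* (CPM, linear axes) in the 5 visceral clusters with at least 10 nuclei in all 9 libraries, each point a library by labelled region and each line the mean of 3. Lumbar/sacral points stand above the rest for *Epha3* in V2 and V4 and *Epha5* in V3 (958 to 1127 CPM), and below the rest for *Epha7* in V2, V3 and V4. The same holds, without a limma call with all libraries, for *Epha3* in V1 and *Epha5* in V4 and V7 (above) and *Epha7* in V7 (below).

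Skeletal and visceral MNs differed from each other in these regional changes. For *Epha5*, skeletal MNs were above visceral MNs by 1.42, 1.38 and 1.58 (log2) in the cervical and 1.35, 1.90 and 1.49 in the thoracic libraries, and below them, at -0.28, -0.19 and -0.38, in the lumbar/sacral libraries. The class that had more *Epha5* thus changed along the cord. This regional change was -1.80 (SE 0.12, limma adjusted p = 3.09e-06, 3 of 3 libraries; without the mismatched male libraries -1.74, limma adjusted p = 8.12e-07). For *Epha7* it was 1.24 (limma, adjusted p = 0.0134; without the mismatched male libraries 1.32, limma adjusted p = 0.0128), lost with no filter (limma, adjusted p = 0.0563) and without lumbar/sacral replicate 1 (limma, adjusted p = 0.0969) or 2 (limma, adjusted p = 0.077). For *Epha10* it was -0.86 (limma, adjusted p = 0.024; without the mismatched male libraries -0.91, limma adjusted p = 0.00164), lost with no filter (limma, adjusted p = 0.0765) and without cervical replicate 3 (limma, adjusted p = 0.0561) or lumbar/sacral replicate 1 (limma, adjusted p = 0.083) or 2 (limma, adjusted p = 0.132). *Epha3* passed only without the mismatched male libraries (-0.61, limma adjusted p = 0.0198, against -0.49 and 0.526 with all).

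By class, *Epha5* was at 817 ± 111 CPM in skeletal MNs, 497 ± 306 CPM in visceral MNs and 671 ± 58.6 CPM in interneurons. It was lower in visceral MNs (-0.78, limma adjusted p = 0.000925, 6 of 9 libraries) and higher in skeletal MNs (0.60, limma adjusted p = 0.00712, 7 of 9), the latter lost without the mismatched male libraries (limma, adjusted p = 0.0533). The libraries on the other side were lumbar/sacral ones. *Epha7* was higher in skeletal MNs than in the mean of the others (242 ± 36.2 CPM; 0.80, limma adjusted p = 0.000389, 9 of 9 libraries). It was lower in interneurons (102 ± 19.8 CPM; -1.02, limma adjusted p = 4.03e-05, 9 of 9). Against visceral MNs alone, *Epha7* was higher in skeletal MNs in 6 of 9 libraries. These differences were -0.47, 0.19 and -0.20 (log2) in the cervical, -0.08, 0.06 and 0.30 in the thoracic and 1.53, 1.80 and 0.30 in the lumbar/sacral libraries. In visceral MNs (210.1 ± 102 CPM; 0.23, limma adjusted p = 0.266) it was called without lumbar/sacral replicate 1 (limma, adjusted p = 0.0353) or 2 (limma, adjusted p = 0.0316). *Epha3* was lower in interneurons (86.4 ± 26.9 CPM, against 141 ± 44 CPM and 141 ± 54.2 CPM in skeletal and visceral MNs; -0.66, limma adjusted p = 0.00437, 8 of 9 libraries). In visceral MNs (0.31, limma adjusted p = 0.138) it was called without thoracic replicate 1 (limma, adjusted p = 0.0296) or 3 (limma, adjusted p = 0.0381).

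*Epha10* was the interneuron receptor of the set by label, at 335, 251 and 279.8 CPM in the cervical libraries, 325, 338 and 283 CPM in the thoracic libraries and 322, 285 and 286 CPM in the lumbar/sacral libraries in interneurons. Skeletal MNs had 58.1 to 96.4 CPM and visceral MNs 63.4 to 176 CPM, both below every interneuron value. The log2 difference of interneurons was 1.71 (limma, adjusted p = 3.21e-10, higher in 9 of 9 libraries), that of skeletal MNs -1.20 (limma, adjusted p = 4.53e-08, lower in 9 of 9) and that of visceral MNs -0.51 (limma, adjusted p = 0.00161, lower in 7 of 9). 84.8% of interneuron nuclei had a count, against 42.8% of skeletal and 50.1% of visceral nuclei. *Epha8*, a receptor of the developing midbrain, was at 1.57 ± 1.0 CPM in skeletal MNs, 2.72 ± 1.46 CPM in visceral MNs and 5.67 ± 2.74 CPM in interneurons and was too low to test between classes.

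A nucleus usually held counts of several receptors. The mean number with a count was 3.72 for skeletal MNs, 3.17 for visceral MNs and 3.18 for interneurons, and 2.99, 2.50 and 2.56 after thinning to 4000 counts, which left out 566 nuclei (3.53%), all from lumbar/sacral replicate 1. By cluster it was highest in I5, at 4.44, and lowest in V6, at 2.30, where 9.62% of nuclei had none. Over the 21 clusters the mean levels of member pairs, without *Epha8*, had Pearson r from -0.568 (*Epha7* and *Epha10*) to 0.331 (*Epha3* and *Epha7*). The 3 lowest values all involved *Epha10*, the others being -0.498 with *Epha3* and -0.42 with *Epha6*. Clusters share libraries and depth, so r is a description. The genes most like *Epha4* over the 21 clusters were *Hpn* (r = 0.885), *Platr31* (0.856) and *Myadml2os* (0.833), and those most like *Epha10* were *Hoxb5os* (0.904), *Rapgefl1* (0.892) and *Hoxb5* (0.883). For *Epha6* they were *Fbxo45* (0.845), *Gm16894* (0.815) and *Kdm6b* (0.812), and for *Epha5* *Asap2* (0.806), *Pkd2l2* (0.795) and *4933406I18Rik* (0.792). For *Epha7* they were *Cyp4x1* (0.783), *Ptpn21* (0.766) and *Ctnnd2* (0.7245), and for *Epha3* *Cnot10* (0.748), *Prr16* (0.747) and *Tnr* (0.737). These were the highest of 10842 genes, and *Epha8* reached 10 CPM in only 2 clusters and got no such list.

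The other genes of the pathway were followed by list, in class comparisons where 66.1% (skeletal), 62.8% (visceral) and 50.5% (interneurons) of all genes passed. Of EphA receptors outside the set, in skeletal, visceral and interneuron nuclei in turn, *Epha1* was at 0.662, 0.735 and 0.562 CPM and *Epha2* at 0.129, 0 and 0.0781 CPM. Of 5 EphB receptors 3 were tested: in skeletal MNs 1 was higher and 2 lower, visceral MNs had 3 lower, and interneurons 2 higher and 1 lower, with median log2 differences of -0.40, -0.22 and 0.59. *Ephb1* was at 44.4 ± 18.9 CPM in skeletal MNs, 38 ± 8.57 CPM in visceral MNs and 272 ± 36.1 CPM in interneurons (SD over 9 libraries), a log2 difference of 2.64 for interneurons (limma, adjusted p = 1.49e-12, 9 of 9 libraries). *Ephb6*, whose kinase is inactive, was higher in skeletal MNs, at 21.7 ± 6.30 CPM against 11.2 ± 4.60 and 7.79 ± 1.79 CPM (0.89, limma adjusted p = 2.88e-09, 9 of 9). Of 5 ephrin-A ligands, which EphA receptors bind, 4 were measured (not *Efna4*) and 2 tested. *Efna5* was at 744 ± 219 CPM in visceral MNs, 402 ± 88.6 CPM in interneurons and 185 ± 77.1 CPM in skeletal MNs, higher in visceral MNs (1.44, limma adjusted p = 2.92e-08, 9 of 9) and lower in skeletal MNs (-1.61, limma adjusted p = 3.79e-09, 9 of 9). It was highest in V6 (1275 CPM) and V7 (1174 CPM) and lowest in I3 (35.4 CPM), the cluster with the most *Epha5*. Skeletal MNs also had less *Efna3* (-0.25, limma adjusted p = 0.0191, 7 of 9). Neither ligand passed in interneurons, and their median log2 differences were -0.93, 0.80 and 0.12 in the skeletal, visceral and interneuron class. Of 3 ephrin-B ligands, *Efnb2* was the 1 tested, and it was higher in visceral MNs (0.19, limma adjusted p = 0.0144, 8 of 9).

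All 24 signalling partners were tested. Skeletal MNs had 12 higher and 8 lower, visceral MNs 11 and 10, and interneurons 1 and 8, with median log2 differences of 0.11, 0.04 and -0.08. Of all genes 66.1%, 62.8% and 50.5% passed there, as for the motor pool list below. *Ret*, a receptor that works with ephrin-A in limb axons, was at 143 CPM in skeletal MNs against 17.8 and 16.6 CPM in visceral MNs and interneurons (2.86, limma adjusted p = 3.37e-12, 9 of 9 libraries). *Vav3*, an exchange factor, was at 327, 104 and 164 CPM (1.31, limma adjusted p = 1.04e-09, 9 of 9). *Ngef* (ephexin), another exchange factor that EphA4 activates, was lowest in skeletal MNs, at 3.03 CPM against 51.7 and 17.8 CPM (-2.15, limma adjusted p = 1.13e-14, 9 of 9).

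By region, lumbar/sacral against rostral, the genes of these pathway lists that passed were 2 in visceral MNs (where 4.27% of all genes did), 5 in V2 (3.07%), 1 each in V3 (1.55%), V4 (2.74%), I2 (0.511%) and I6 (0.845%) and 5 for skeletal minus visceral MNs (7.26%). None did in the other lumbar/sacral comparisons with all libraries and no replicate block. For each, the 3 lumbar/sacral libraries stood outside the rostral range, and values are given with all libraries and then without the mismatched male ones. Visceral MNs had more *Ret* (1.71 and 1.62, limma adjusted p = 0.000761 and 0.00247) and less *Vav3* (-0.87 and -0.95, limma adjusted p = 0.00857 and 0.00838), the latter lost without lumbar/sacral replicate 2 or 3 (limma, adjusted p = 0.0564 and 0.0557). In V2 *Ret* was higher (2.29 and 2.46, limma adjusted p = 0.00413 and 0.00368) and *Vav3* (-1.88 and -2.01, limma adjusted p = 0.00118 and 0.00035) and *Efnb2* (-1.92 and -1.67, limma adjusted p = 0.00596 and 0.0189) were lower. *Efna5* was higher in V2 (2.12 and 1.72, limma adjusted p = 0.0224 and 0.000688). This was lost without cervical replicate 1 (limma, adjusted p = 0.0616) or lumbar/sacral replicate 1, 2 or 3 (limma, adjusted p = 0.113, 0.0967 and 0.136). *Ephb1* was higher in V2 (1.76 and 1.82, limma adjusted p = 0.0201 and 0.0301), lost with no filter and without cervical replicate 1 (limma, adjusted p = 0.059 and 0.0523). With a lumbar/sacral library left out, *Ephb1* and *Ret* in V2 fell short of the filter and were not tested. Both are counted among the 5 in V2 but met the filter only through the lumbar/sacral sums, so nothing is concluded from either call in V2. *Ephb1* was also higher in V4 (1.90 and 1.64, limma adjusted p = 0.0369 and 0.0109). That call was lost with a pseudocount of 1, with no filter and without cervical replicate 1 or 3 (limma, adjusted p = 0.095, 0.0637, 0.0785 and 0.0918) or lumbar/sacral replicate 1, 2 or 3 (limma, adjusted p = 0.184, 0.147 and 0.108). It was higher in I2 (2.12 and 1.98, limma adjusted p = 0.000159 and 0.000249) and lower in I6 (-1.39 and -1.43, limma adjusted p = 0.00243 and 0.00319). *Kalrn* was lower in V3 (-0.99 and -1.09, limma adjusted p = 0.0355 and 0.00324). This was lost with median-of-ratios scaling (limma, adjusted p = 0.0708) and without each library but cervical replicate 2 (limma, adjusted p 0.0511 to 0.227). For skeletal minus visceral MNs, the regional change was positive for *Vav3* (0.61 and 0.53, limma adjusted p = 0.0226 and 0.0435) and *Grip1* (0.69 and 0.64, limma adjusted p = 0.00699 and 0.000547) and negative for *Ret* (-1.63 and -1.70, limma adjusted p = 1.08e-05 and 8.22e-06), *Ephb1* (-1.22 and -1.22, limma adjusted p = 0.00379 and 0.00724) and *Anks1b* (-0.54 and -0.51, limma adjusted p = 0.00407 and 0.00312). The *Vav3* call was lost with a pseudocount of 20, with no filter and without lumbar/sacral replicate 1 or 3 (limma, adjusted p = 0.0523, 0.066, 0.0856 and 0.122). Between limb and thoracic levels, *Ret* in visceral MNs was called only in some settings, such as without the mismatched male libraries (1.13, limma adjusted p = 0.0452). Other genes of the lists were called in some settings alone (limma, adjusted p 0.0031 to 0.0481 for those named). Without the mismatched male libraries, visceral MNs added *Grip1* (-0.87), *Kalrn* (-0.68) and *Chn2* (0.66). V2 added *Grip1* (-0.90), V3 added *Efna5* (1.33) and *Grip1* (-1.09), and skeletal minus visceral MNs *Chn1* (0.57). Leaving out cervical replicate 2 alone added the same *Grip1*, *Kalrn* and *Efna5* calls. The replicate block added *Efna5* (1.72) and *Grip1* (-0.935) in V3 and *Ephb1* in I4 (1.43), among others.

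Of 11 genes tied to motor columns or pools, not all of them of the limb, 8 were tested between classes, with 3 higher and 4 lower in skeletal MNs, 5 and 2 in the visceral class and 1 and 7 in interneurons, and median log2 differences of -0.28, 0.95 and -1.24. Between limb and thoracic levels none of them passed limma in S1, S2, S3 or interneurons, and in visceral MNs *Erbb4* passed (2.48, limma adjusted p = 0.0109, 6 of 6 limb libraries above the thoracic mean; without the mismatched male libraries 2.91, limma adjusted p = 0.00663). That call was lost without cervical replicate 3 (limma, adjusted p = 0.0537), thoracic replicate 1 or 3 (limma, adjusted p = 0.0535 and 0.0691) or lumbar/sacral replicate 1 or 3 (limma, adjusted p = 0.0549 and 0.0765). Against rostral levels, *Erbb4* was higher at lumbar/sacral levels in visceral MNs (4.04 and 4.08, limma adjusted p = 0.00011 and 0.000237), V2 (7.66 and 7.35, limma adjusted p = 5.24e-07 and 7.32e-09) and V3 (2.78 and 2.92, limma adjusted p = 0.000177 and 0.000145), in 3 of 3 libraries each. Its regional change was negative for skeletal minus visceral MNs (-4.88 and -5.08, limma adjusted p = 2.59e-07 and 4.01e-08), as was that of *Isl1* (-1.71 and -1.68, limma adjusted p = 0.000719 and 6.32e-06), both in 3 of 3. *Cpne4* was lower in V2 (-1.51 and -1.58, limma adjusted p = 0.00546 and 0.00701) and higher in V4 (1.54 and 1.71, limma adjusted p = 0.0031 and 0.00254) and I6 (2.25 and 2.39, limma adjusted p = 0.00522 and 0.00918), in 3 of 3 each. In I6 *Cpne4* was not tested with a lumbar/sacral library left out. It met the filter there only through the lumbar/sacral sums, so nothing is concluded from that call. Without the mismatched male libraries, *Isl1* was called in visceral MNs (1.52, limma adjusted p = 0.00175) and *Cpne4* in V3 (-0.94, limma adjusted p = 0.0139). So was *Mecom* for skeletal minus visceral MNs (-0.98, limma adjusted p = 0.0414). The replicate block added *Cpne4* in interneurons (1.43, limma adjusted p = 0.0247) and *Erbb4* in V7 (2.03, limma adjusted p = 0.046), among others. The remaining 3 calls of this list with all libraries depended on single libraries. *Cpne4* in I2 (1.90 and 1.70, limma adjusted p = 0.0346 and 0.0303), higher in 3 of 3, was lost with a pseudocount of 1 (limma, adjusted p = 0.0925) and without each library but cervical replicates 1 and 2 (limma, adjusted p 0.0562 to 0.236). *Isl1* in V4 (1.19 and 1.22, limma adjusted p = 0.0394 and 0.0616), higher in 3 of 3, was lost without the mismatched male libraries, with median-of-ratios scaling and with no filter (limma, adjusted p = 0.0584 and 0.0605 for the last 2). It was also lost without each library but cervical replicate 2 and lumbar/sacral replicate 3 (limma, adjusted p 0.0571 to 0.235). *Foxp1* for skeletal minus visceral MNs (-0.41 and -0.41, limma adjusted p = 0.0337 and 0.04), below the rostral range in 1 of 3, was lost with no filter (limma, adjusted p = 0.066) and without each library but cervical replicate 2 and thoracic replicate 3 (limma, adjusted p 0.0608 to 0.149).

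The male and the female pool were compared in the 3 regions. No receptor passed limma in the skeletal, visceral or interneuron class, where 0.0725%, 0.0513% and 0.0521% of genes did and 1195, 1388 and 1327 genes had an unadjusted limma p under 0.05. There was 1 pool of each sex, so sex and pool cannot be told apart, and both mismatched libraries were male. Without cervical replicate 2 or 3, *Epha3* was called in skeletal MNs (-0.65 either way, limma adjusted p = 0.000902 and 0.00192) and interneurons (-0.69, limma adjusted p = 5.89e-06 and 2.44e-05), and *Epha4* in interneurons (0.63, limma adjusted p = 0.00276 and 0.00803). With 1 of the 2 out, the other no longer entered the difference. The differences with all libraries were -0.31 for *Epha3* in skeletal MNs (limma, adjusted p = 0.651), -0.49 in interneurons (limma, adjusted p = 0.34) and 0.07 for *Epha4* in interneurons (limma, adjusted p = 0.954), male minus female.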

How the data were processed

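Nuclei were pooled, sorted and sequenced by the authors, who counted reads with Cell Ranger 3.1.0 (pre-mRNA reference, GRCm38) and evened out depth with SCTransform in Seurat, per the submitters' processing notes and methods. The deposited values are a score: whole-number corrected counts, not raw counts, so edgeR's quasi-likelihood test, named for raw counts, was not run. Groups follow the labels; classes and clusters follow the deposited annotation.

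Corrected counts were summed by library and class or cluster (at least 10 nuclei) and scaled to CPM. Genes at 10 CPM in 3 sums were tested on log2(CPM + 5) with limma 3.58.1 (R 4.3.3) and Benjamini-Hochberg adjustment over all genes tested, so log2 differences of low genes are understated; 20 comparisons were planned and 12 added after values were seen. Class and type fits had library as a term. Shares were tested by exact permutation over libraries. Alternatives were pseudocounts of 1 and 20, median-of-ratios scaling, no filter, 30 nuclei, each library left out, a replicate block and, added after seeing the data, no mismatched male libraries and no shared barcodes. Same-numbered libraries come from the same pool of mice, which pairs them; their deviations correlated at -0.22 to 0.92, negative for cervical replicate 3. The code was tested on simulated data, where the share of false calls was highest, and above the threshold, in the layouts of lumbar/sacral I6 and limb S2. No doublet caller was run.

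All 7 receptors were named, the pathway and motor pool lists by their counts, and for each receptor reaching 10 CPM in 3 clusters the 3 genes with the highest correlation over clusters; other genes were named after their values were seen. 2 of the marker sets are not reported here. Members and lists were chosen with earlier results of these data known. Python 3.11.15, numpy 2.4.6, pandas 2.3.3, scipy 1.17.1 and matplotlib 3.10.9 were used.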

Additional observations from a re-analysis of the deposited data

Results flagged for a closer look

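The regional difference, lumbar/sacral against cervical and thoracic, was not the same in skeletal and visceral MNs for 4 receptors by a limma fit of the difference itself (Benjamini-Hochberg adjustment, 7.26% of all genes called, 3 of 3 lumbar/sacral libraries on 1 side of the rostral mean each time). It was -1.80 for *Epha5* (adjusted p = 3.09e-06), -1.26 for *Epha6* (adjusted p = 3.48e-05), 1.24 for *Epha7* (adjusted p = 0.0134) and -0.86 for *Epha10* (adjusted p = 0.024), as the skeletal minus the visceral change on the log2 scale. By limma the last 2 were not called with no filter (adjusted p = 0.0563 and 0.0765), without lumbar/sacral replicate 1 (0.0969 and 0.083) or without lumbar/sacral replicate 2 (0.077 and 0.132), nor *Epha10* without cervical replicate 3 (0.0561). Different visceral clusters were sampled in the regions, V8 above all, and S2 was 9.64% to 42.8% of skeletal nuclei by library. The part of either mix in these differences was not tested.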

How the results depend on the processing

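Over the alternatives run, 3005 receptor values stayed on the same side of the threshold, 37 called ones were lost, 32 were gained and 0 that were called changed direction; values not called did so in part. Counts of receptor calls ranged, with each library left out in turn, from 13 to 14 between classes (13 with all), 11 to 14 between skeletal types (12), 0 between limb and thoracic levels (0 by limma, also under every other setting), 2 to 4 between lumbar/sacral and rostral levels (2; 4 with the replicate block), 5 to 8 within clusters (9), 2 to 4 for skeletal minus visceral MNs (4; 2 with no filter) and 0 to 3 between the sexes (0). The share difference of *Epha4* in alpha MNs ranged from -43.7 to -26.7 points with a library left out, and was -15.5 points after thinning (exact p = 0.202) and -35.7 points with an exact p of 0.0741 in the replicate block. Thinning concerned the part of depth alone, and no other cause was tested. The 9 calls within clusters include *Epha4* in I6 and *Epha3* in V2, which the lumbar/sacral sums carried past the filter. The block changed no receptor call besides those given with it. All 147 cluster levels moved by less than 1 SD when nuclei were averaged in place of summed (at most 3.67% for levels of 10 CPM or more). Removing both mismatched male libraries left no sex comparison.

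Counts of genes called moved by over 1.5 times in 130 cases and not in 400. Between lumbar/sacral and rostral levels they were 428 in visceral MNs (160 without lumbar/sacral replicate 1, 737 with the replicate block), 5 in interneurons (1 to 44), 0 in S1 (up to 23), 0 in S2 (up to 1) and 7 in S3 (0 to 17). Within clusters they were 0 in V1 (up to 7), 317 in V2 (152 to 429), 156 in V3 (40 to 265), 281 in V4 (128 to 432), 8 in V7 (0 to 57), 0 in I1 (up to 9), 49 in I2 (11 to 134), 0 in I3 (up to 16), 4 in I4 (1 to 29), 3 in I5 (0 to 12) and 85 in I6 (23 to 182), and 798 for skeletal minus visceral MNs (405 to 892). Between limb and thoracic levels they were 23 in visceral MNs (0 to 87), 0 in S3 (up to 2) and 0 for S2 minus S3 (up to 4). The sex comparison called 7 genes in skeletal MNs (0 to 1329), 5 in the visceral class (0 to 425) and 5 among interneurons (0 to 1331), the highest each time without cervical replicate 3. Pools of mice and 3 libraries a region limit what could be detected. Whether the low depth of lumbar/sacral replicates 1 and 3 did so too was not tested for these counts.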
